A study of Homo sapiens with 8 samples.

Results

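The genes of the MYC and MAX network were examined in HepG2 cells, an established human hepatocarcinoma line, with and without inhibition of EZH1 and EZH2. The 10 members were MYC, MYCN, MYCL, MAX, MXD1, MXD3, MXD4, MXI1, MNT and MLX, and they were found by gene symbol among 25603 genes. The group was chosen by a measured value, the higher level of MYCN in EZHi than in vehicle in these same libraries, so that MYCN is described here without a test. The other 9 members were taken as its paralogues and partners, with earlier results of these data known. In the libraries labelled EZHi, cells had received UNC1999 and valemetostat tosylate (spelled Valmetostat Tosylate in the labels), both inhibitors of EZH1 and EZH2, at 1 µM each for 4 days. Vehicle cells received 0.2% DMSO over the same 4 days. Both groups were grown alike, in William E medium with serum, insulin and dexamethasone, and each group had 4 libraries of paired-end reads from purified RNA. The study describes its replicates as biologically independent, but all of them come from a single cell line.

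MYC, MYCN and MYCL are basic helix-loop-helix leucine zipper factors that bind DNA as dimers with MAX, usually at the E-box CACGTG, and activate transcription there. MXD1, MXD3, MXD4, MXI1 and MNT compete with them for MAX and recruit the SIN3 corepressor complex to the same sites. MLX heads a parallel branch in which it pairs with MLXIP (MondoA) or MLXIPL (ChREBP), the glucose-responsive factors, and it can also pair with some of the MXD factors and MNT. MYC is the member known for its role in liver growth and liver cancer, whereas MYCN is best known from the developing nervous system and from neuroblastoma. EZH1 and EZH2 are the alternative catalytic subunits of polycomb repressive complex 2, which methylates lysine 27 of histone H3 at silent genes.

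Levels are given as estimated FPKM, a value per length of transcript derived from the deposited log2 values, and differences are log2 values of EZHi minus vehicle. The read depth behind the values is unknown. A gene was called when its two-sided limma test, adjusted by Benjamini and Hochberg over 20153 genes with a mean of at least 0.1 estimated FPKM, gave an adjusted p under 0.05. All 10 members passed that filter, and 7 of them had a mean of 10 estimated FPKM or more. Since equal replicate numbers of the 2 groups marked libraries that deviated together, differences are also given within the 4 pairs, and the adjusted p of the fit with the replicate number as a block is given where it changes a call.

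MYCN (ENSG00000134323) went from the lowest level of the network in vehicle to about that of MYCL in EZHi. It is a single gene on the plus strand of chromosome 2, from 15940550 to 15947007 (GRCh38, GENCODE 44). In the vehicle libraries its estimated FPKM was 0.553, 0.515, 0.279 and 0.321, and in the EZHi libraries of the same replicate order it was 2.81, 2.74, 2.00 and 2.19. Every EZHi library lay far above every vehicle library, with no overlap between the groups. The means were 0.417 ± 0.137 and 2.44 ± 0.402 (SD, n = 4 each). The log2 difference of the means was 2.59, a 6.04-fold higher level, and within the 4 pairs it lay between 2.35 and 2.84. Leaving out each library in turn moved the difference only between 2.42 and 2.75. Ordered by their difference, MYCN ranked 34 from the top among the 20153 genes. In vehicle, replicates 3 and 4 were below replicates 1 and 2, and the EZHi libraries stood in the same order at a smaller spread (SD of the log2 level 0.49 in vehicle and 0.24 in EZHi). These values chose the gene group, so they carry no p-value. In whole-culture RNA, more cells with MYCN transcripts and more transcripts per cell cannot be told apart.

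**Figure D1:**
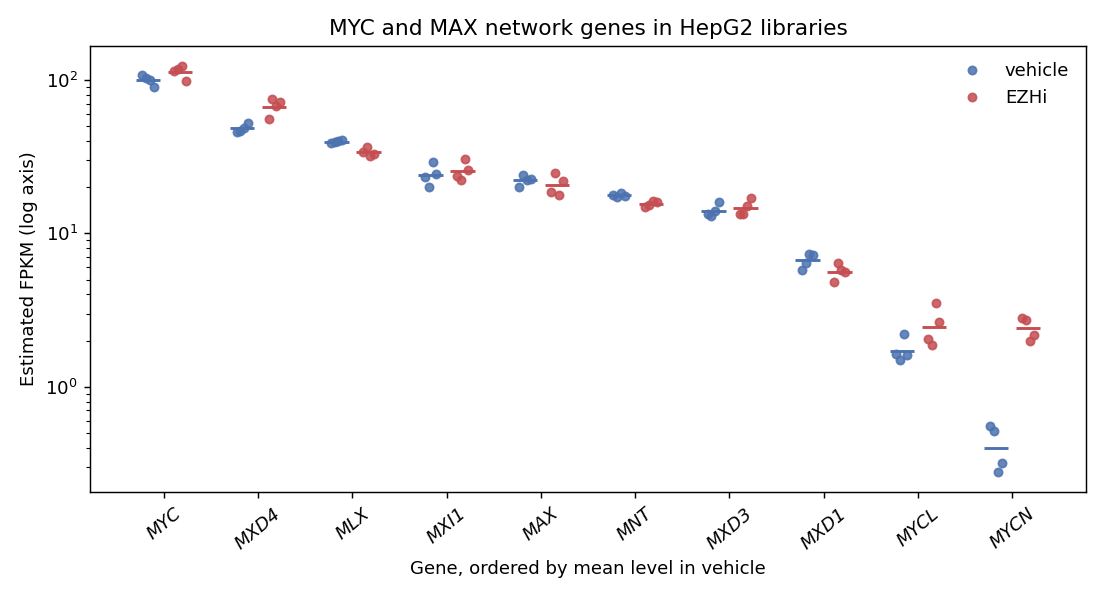
Estimated FPKM (log axis) of the 10 network genes in each of the 4 vehicle and 4 EZHi libraries, ordered by mean level in vehicle. Points are libraries and bars are means of the log2 values; MYCN went from 0.279 to 0.553 in vehicle to 2.00 to 2.81 in EZHi, while MYC stayed between 90.2 and 122.8 in all 8 libraries.

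The 250 bases before the RefSeq start of MYCN (chr2:15940300-15940549, GRCh38.p14, plus strand) are shown because this gene had the largest difference of the network. The capitals mark the stretch that matched E2F motifs, spelled TTTCGCGC, TTTGGCGC or TTTCCCGC and searched on both strands. E2F factors are known regulators of MYCN, and E2F6 is a DNA-binding subunit of the polycomb complex PRC1.6, in which MAX and MGA also take part.
MYCN: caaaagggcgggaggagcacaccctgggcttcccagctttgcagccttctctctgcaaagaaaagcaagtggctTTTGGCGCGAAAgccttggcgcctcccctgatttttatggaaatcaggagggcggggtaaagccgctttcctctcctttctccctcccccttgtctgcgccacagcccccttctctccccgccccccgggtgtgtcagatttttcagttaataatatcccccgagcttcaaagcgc
Here 2 motif matches, on opposite strands, overlapped in the run TTTGGCGCGAAA. Of all 35116 RefSeq promoter entries, 2.324% held such a motif in their 250 bases. Among the 12 entries of the 9 members found there the MYCN entry alone did. Outside the members, an entry of the partner MGA also held such a motif, 58 bases before its start. The MYCN stretch held 11 CpG dinucleotides, equal to the median of all entries. The other members ranged from 10 in MXD3 to 35 in MYCL and MNT, with MXI1 at 12, 24 and 28 in its 3 entries. No E-box CACGTG was found in the MYCN stretch. The motifs were chosen with these sequences in view, and a match describes letters only.

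Of the genes next to MYCN on chromosome 2, only DDX1 was well expressed, and its difference was small. MYCNOS, the antisense gene that overlaps 98 of the 2755 exon bases of MYCN, was at 0.065 estimated FPKM in vehicle and 0.0839 in EZHi, below the level at which genes were tested. Its groups did not overlap, and 4 of 4 pairs were higher in EZHi (log2 difference 0.35). DDX1, an RNA helicase gene often amplified with MYCN in neuroblastoma and 306 kb away, was at 82.8 ± 8.17 in vehicle and 76.8 ± 8.24 in EZHi (SD, n = 4 each). Its difference of −0.11 missed the threshold (limma adjusted p = 0.531). CYRIA, 602 kb away on the other side, was at only 0.0935 estimated FPKM in vehicle and 0.118 in EZHi (log2 difference 0.33). Its groups did not overlap either, and 4 of 4 pairs were higher. CYRIA passed the filter of 0.1 only through the EZHi libraries, so no call is read from it. The transformation shrinks differences at such low levels, so those of MYCNOS and CYRIA cannot be set against that of MYCN. Reads that overlapped exons of both MYCN and MYCNOS were counted for neither gene, since counting ignored strand.

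MYC was by far the most abundant member, with a small difference in the same direction as MYCN. Its estimated FPKM was 108.5, 103.2, 100.1 and 90.2 in the vehicle libraries and 114.6, 118.1, 122.8 and 98.9 in the EZHi libraries. The ranges overlapped, although each EZHi library exceeded the vehicle library of its own number. The log2 difference was 0.18 ± 0.085 (SE; 95% interval −0.02 to 0.37), and the limma adjusted p was 0.228. With the replicate block the adjusted p was 0.0234, which is past the threshold, and the 4 pairs lay between 0.08 and 0.30. MYC was also called after quantile normalization, and in none of the other alternatives.

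MYCL, the third MYC paralogue, known from lung tumours, was low and varied more than MYC. It lies on the minus strand of chromosome 1, from 39895428 to 39902256. Its estimated FPKM was 1.63, 1.498, 2.20 and 1.61 in vehicle and 2.04, 1.87, 3.54 and 2.62 in EZHi. Replicate 3 was the highest library of each group, and the groups overlapped. The log2 difference was 0.51 ± 0.21 (SE; 95% interval 0.05 to 0.97), with a limma adjusted p of 0.148. All 4 pairs were higher in EZHi, by 0.32 to 0.70, and the replicate block brought the adjusted p to 0.0073. MFSD2A, a lipid transporter gene 52.9 kb away, was higher in the same 4 pairs, at 0.196 and 0.309 estimated FPKM, with a limma adjusted p of 0.064 without the block and 0.006 with it. TRIT1, 11.9 kb away on the other side, did not pass the threshold (log2 difference −0.14, limma adjusted p = 0.347).

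The balance among the MYC paralogues moved with MYCN but remained dominated by MYC. MYC had 259 ± 77.3 times the level of MYCN in vehicle and 47.6 ± 9.37 times in EZHi (SD over 4 libraries each). The share of MYCN in the summed level of the 3 paralogues was 0.402% ± 0.111 in vehicle and 2.06% ± 0.352 in EZHi. MYCL made up 1.70% ± 0.329 and 2.13% ± 0.606 of the same sum. Against MYCL, MYCN stood at 0.252 ± 0.107 of its level in vehicle and at 1.06 ± 0.433 in EZHi, where it was above MYCL in replicates 1 and 2 and below it in replicates 3 and 4. The summed level was 102.6 ± 7.77 estimated FPKM in vehicle and 118.6 ± 10.6 in EZHi, a log2 difference of 0.21, which lay between 0.16 and 0.27 when each library was left out. These ratios include the gene that chose the group and were not tested.

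MAX, the shared partner, showed no difference beyond its spread between libraries. It lies on the minus strand of chromosome 14, from 65006174 to 65102695, and 16.1% of its exon bases are shared with listed genes, mainly FNTB on the other strand. Its estimated FPKM was 19.9, 23.8, 22.2 and 22.7 in vehicle and 18.5, 24.7, 17.8 and 21.95 in EZHi. Replicate 2 was the highest of both groups. The log2 difference was −0.11 ± 0.11 (SE; 95% interval −0.36 to 0.14), with a limma adjusted p of 0.606, and 3 of 4 pairs were lower. The summed MYC paralogues stood at 4.66 ± 0.636 times the level of MAX in vehicle and 5.85 ± 1.20 times in EZHi, with overlapping ranges.

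Among the MAX-binding antagonists, MXD4 alone was called, and it was higher. MXD4 is a repressor of the MXD group, known for its presence in differentiating cells, and lies on the minus strand of chromosome 4, from 2247432 to 2262109. Its estimated FPKM was 45.9, 46.5, 48.8 and 52.2 in vehicle and 55.6, 74.5, 67.2 and 71.7 in EZHi. All EZHi libraries were above all vehicle libraries, with replicate 1 the lowest of both groups. The log2 difference was 0.47 ± 0.095 (SE; 95% interval 0.26 to 0.68), a 1.38-fold higher level, with a limma adjusted p of 0.0098. It was called in each of the 16 alternatives, with adjusted p between 0.00073 and 0.0378. MXD4 was the 1 member called higher of the 9 other than MYCN, beside 8.85% of all 20153 genes. Among the 7809 genes with at least 10 estimated FPKM, to which MXD4 belongs, 2.73% were called higher.

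MXD1, MXD3 and MXI1 were called neither by limma nor in any of the 16 alternatives. MXD1, a repressor that appears as many cell types differentiate, was at 6.69 ± 0.752 estimated FPKM in vehicle and 5.65 ± 0.671 in EZHi (SD, n = 4 each). Its log2 difference was −0.24 (95% interval −0.50 to 0.02, limma adjusted p = 0.221), and 3 of 4 pairs were lower. MXD3, a repressor of the same group that is found in dividing cells, was at 14.1 ± 1.37 and 14.7 ± 1.75, a difference of 0.06 (95% interval −0.17 to 0.29, limma adjusted p = 0.779). Its level is the least secure of the group, because 43.7% of its exon bases are shared with RAB24 and PRELID1 and reads on shared bases were not counted. MXI1 (also known as MXD2) was at 24.2 ± 3.72 and 25.6 ± 3.65, a difference of 0.08 (95% interval −0.20 to 0.37, limma adjusted p = 0.74). All 4 pairs of MXI1 were higher in EZHi, by 0.03 to 0.15 (SD of the pair differences 0.05). With the replicate block its limma adjusted p was 0.221.

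MNT and MLX were slightly lower in EZHi, and MLX passed the test. MNT, the widely expressed antagonist of MYC on chromosome 17 (minus strand, from 2384073 to 2401104), was at 17.7, 17.4, 18.4 and 17.6 estimated FPKM in vehicle and 14.8, 15.3, 16.1 and 15.9 in EZHi. The groups did not overlap, and the 4 pairs differed by −0.26 to −0.14. The log2 difference was −0.20 ± 0.062 (SE; 95% interval −0.33 to −0.06). The limma adjusted p of 0.0695 missed the threshold, and with the replicate block, the 1 alternative of 16 that called MNT, it was 0.0189. Quantile normalization gave −0.15 (limma adjusted p = 0.183), and centring on genes of 10 estimated FPKM or more gave −0.10 (limma adjusted p = 0.373). MLX, the partner of MLXIP and MLXIPL, lies elsewhere on chromosome 17 (plus strand, from 42567072 to 42573239). Its estimated FPKM was 38.9, 39.3, 39.8 and 40.6 in vehicle and 33.8, 36.5, 32.0 and 32.8 in EZHi, again without overlap. The log2 difference was −0.23 ± 0.061 (SE; 95% interval −0.37 to −0.10), 0.851 of the vehicle level, with a limma adjusted p of 0.0336.

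The call for MLX was close to the threshold. With the replicate block its adjusted p was 0.0091, but leaving out a library ended the call in 7 of 8 fits, with adjusted p up to 0.0986, and the fit without EZHi replicate 2 alone kept it at 0.0231. Quantile normalization (adjusted p = 0.138) and centring on genes of 10 estimated FPKM or more (adjusted p = 0.157) also ended it. Lower values were common among well-expressed genes: 4.27% of all tested genes and 9.16% of those at 10 estimated FPKM or more were called lower, and the median difference of the latter was −0.0945. PSMC3IP, which shares 18.2% of the exon bases of MLX on the other strand, was lower by a similar amount (log2 difference −0.33, limma adjusted p = 0.101 and 0.010 with the replicate block). Reads that overlapped exons of both MLX and PSMC3IP were counted for neither gene, since counting ignored strand. The effect of leaving them out on the level of MLX was not tested.

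**Figure D2:**
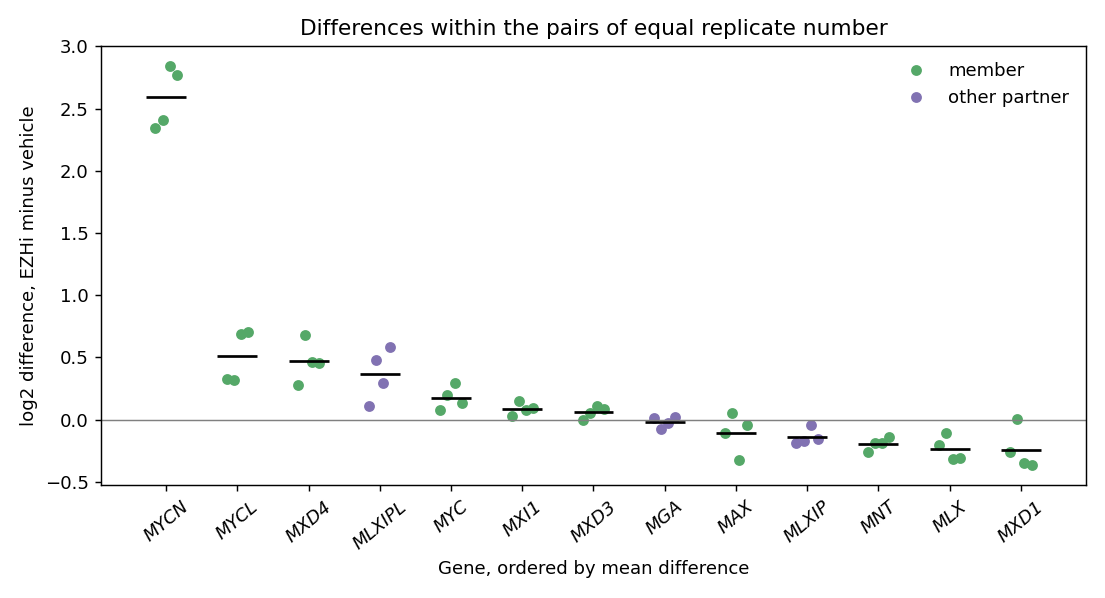
Log2 difference, EZHi minus vehicle, within each of the 4 pairs of equal replicate number for the 10 members and for MLXIP, MLXIPL and MGA, ordered by mean difference. Points are pairs and bars are their means; the 4 MYCN pairs lie between 2.35 and 2.84, and the highest pair of any other gene, from MYCL, is at 0.70.

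The E-box CACGTG, to which dimers of this network bind, was found within 250 bases before the RefSeq start of MXD4, MNT and MLX, and in none of the other 9 entries of the members. MYC had no entry and was not searched. Those 3 stretches are shown because they belong to the 3 members, other than MYCN, whose groups did not overlap. The capitals mark the E-box, which reads the same on both strands.
MXD4: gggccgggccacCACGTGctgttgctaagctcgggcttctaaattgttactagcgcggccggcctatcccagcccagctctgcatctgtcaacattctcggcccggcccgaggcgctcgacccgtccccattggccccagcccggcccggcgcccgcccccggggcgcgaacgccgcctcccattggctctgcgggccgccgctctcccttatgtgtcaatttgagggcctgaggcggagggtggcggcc
MNT: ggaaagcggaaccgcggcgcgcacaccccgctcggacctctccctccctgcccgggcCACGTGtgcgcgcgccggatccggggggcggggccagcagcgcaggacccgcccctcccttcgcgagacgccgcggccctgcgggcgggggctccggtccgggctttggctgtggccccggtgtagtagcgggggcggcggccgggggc
MLX: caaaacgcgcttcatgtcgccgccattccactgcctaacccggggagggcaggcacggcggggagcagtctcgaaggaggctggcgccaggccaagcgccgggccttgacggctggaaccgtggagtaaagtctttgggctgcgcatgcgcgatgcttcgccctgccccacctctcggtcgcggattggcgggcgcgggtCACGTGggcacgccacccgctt
The stretch of MXD4 is chr4:2262110-2262359 and that of MNT chr17:2401105-2401310, both on the minus strand, and that of MLX is chr17:42566850-42567071 on the plus strand, all from RefSeq on GRCh38.p14. For MNT and MLX the last 44 and 28 of the 250 bases, which GENCODE places inside the gene, are left out. The last base of the E-box lay 233 bases before the RefSeq start in MXD4, 188 in MNT and 45 in MLX. The E-box was found in 6.345% of all 35116 promoter entries, which had a median of 11 CpG dinucleotides in their 250 bases. MXD4 held 26, MNT 35 and MLX 30, while MYCL, without the E-box, held 35. The share among entries of like CpG content was not computed. MXD4 was higher and MNT and MLX were lower, so that stretches with this motif belonged to differences of both signs.

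The other dimer partners, outside the chosen group, were not called. MLXIPL, the glucose-responsive ChREBP of liver, was at 73.9, 58.9, 92.0 and 85.6 estimated FPKM in vehicle and 79.7, 82.3, 112.5 and 128.1 in EZHi. The groups overlapped, all 4 pairs were higher, and the log2 difference was 0.37 ± 0.18 (SE), with a limma adjusted p of 0.235 and of 0.0056 with the replicate block. MLXIP, its paralogue, was at 39.5 ± 2.62 and 35.8 ± 1.84 (SD, n = 4 each), a difference of −0.14 that was lower in 4 of 4 pairs (limma adjusted p = 0.242, and 0.0498 with the replicate block). MGA, a MAX partner that acts in PRC1.6, was at 15.4 ± 0.879 and 15.2 ± 0.92, a difference of −0.02 (95% interval −0.18 to 0.15, limma adjusted p = 0.912).

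Over the 9 members other than MYCN, 1 was called higher (MXD4) and 1 lower (MLX), and their median log2 difference was 0.06, beside −0.0077 over all tested genes. With the replicate block, 3 were called higher (MYC, MYCL and MXD4) and 2 lower (MNT and MLX), where 14.9% and 15.1% of all tested genes were called. Groups did not overlap for 3 of the 9 members, and for 18.6% of all tested genes. The pairs were all higher for 4 of the 9 (MYC, MYCL, MXD4 and MXI1) and all lower for 2 (MNT and MLX). How often the 4 pairs agree over all tested genes was not computed, so these counts are a description only.

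The order of levels was the same in both groups: MYC, MXD4, MLX, MXI1, MAX, MNT, MXD3, MXD1, MYCL and MYCN. In vehicle the libraries of MXI1 and MAX overlapped and all other neighbours in that order were separate. In EZHi the neighbours MXI1 and MAX, MNT and MXD3, and MYCL and MYCN overlapped. Dividing by the longest annotated transcript in place of the mean put MXD3 above MNT in both groups, and MLX above MXD4 in vehicle but not in EZHi, so that the order then differed between the groups. The summed antagonists (the MXD factors, MXI1 and MNT) were at 111.1 ± 7.52 estimated FPKM in vehicle and 128.8 ± 11.2 in EZHi, a log2 difference of 0.21. MXD4 supplied 43.6% ± 1.55 of that sum in vehicle and 52.1% ± 3.22 in EZHi, with no overlap. The summed MYC paralogues over the summed antagonists came to 0.929 ± 0.123 in vehicle and 0.927 ± 0.125 in EZHi.

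Genes on which the network acts, or that act on it, were read from 12 lists with 142 tested genes in all, of which 3 were called higher and 12 lower. Most of these genes are well expressed, and 2.73% of all genes at 10 estimated FPKM or more were called higher and 9.16% lower. With the replicate block, 11 of the 142 were called higher and 36 lower, where 14.9% and 15.1% of all tested genes were. Genes at 10 estimated FPKM or more had a median difference of −0.0945, and their share called with the block was not computed. The median was below 0 in 9 of the 12 lists, and in 5 of these 9 it was above 0 under quantile normalization or centring, so that no direction is given for a list as a whole. Quantile normalization ended the calls of NCOR1, SLC7A5, PAICS, CDKN1B, KLF6, ARRDC4, HMGA2 and IGF2BP3, and centring ended the calls of these genes other than NCOR1 and ARRDC4.

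Cofactors and corepressors held few called genes. All 14 tested cofactors and 10 corepressors were at 10 estimated FPKM or more, where 9.16% of all genes were called lower. Among the MYC cofactors, RUVBL1, an ATPase of chromatin remodelling complexes, was at 49.6 and 44.8 estimated FPKM (log2 difference −0.15, limma adjusted p = 0.426) and was lower with the replicate block (adjusted p = 0.0248). TRRAP, the scaffold that brings histone acetyltransferases to MYC, was at 17.9 and 17.1 (−0.07, limma adjusted p = 0.636). Of 10 corepressor genes of the MXD factors and MNT, SAP30, a SIN3 complex subunit, went from 31.4 to 23.4 (−0.42, limma adjusted p = 0.0054) and NCOR1, a scaffold of histone deacetylases, from 57.7 to 46.9 (−0.30, limma adjusted p = 0.0069). SIN3A, SIN3B and HDAC2 were within 0.05 of no difference on the log2 scale. HDAC1 was lower only with the replicate block (−0.17, adjusted p = 0.0234).

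Of 14 genes that set the turnover of MYC family proteins, PIM1 and AURKA were called lower. At 10 estimated FPKM or more, where 13 of the 14 were, 9.16% of all genes were called lower. PIM1, a kinase that stabilises MYC, went from 87.9 to 49.7 estimated FPKM (−0.83 ± 0.19 SE, limma adjusted p = 0.0201), lower in 4 of 4 pairs although the groups overlapped. Its call was lost in 4 of the 8 fits that left out a library, those without vehicle replicate 1 or 4 and without EZHi replicate 2 or 4, with adjusted p up to 0.0667. AURKA, the mitotic kinase that protects the MYCN protein from degradation, went from 131.4 to 105.4 (−0.32 ± 0.056 SE, limma adjusted p = 0.0045) and stayed called in all 8 of those fits. FBXW7, the ligase subunit that marks MYC and MYCN for degradation, was at 8.23 and 8.05 (−0.03, limma adjusted p = 0.853). USP28, PLK1 and CIP2A were also lower once the replicate block was added (−0.22, −0.20 and −0.33, adjusted p = 0.0173, 0.0066 and 0.0031).

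PRC1.6, the polycomb complex that contains MAX and MGA, had no called gene among 8 tested subunits, and 1, PCGF6, was lower with the replicate block (−0.24, adjusted p = 0.0279). E2F6 was at 15.4 and 14.3 estimated FPKM (−0.11, limma adjusted p = 0.453). Of 14 germline genes known as its targets in other cells, 8 were in the table and 5 passed the filter, and none of the 5 was called in the limma fit with or without the block. STAG3, a meiotic cohesin subunit, was at 1.93 and 2.14, and TDRKH at 9.27 and 8.26. The other genes in the table had means under 1 estimated FPKM in both groups.

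**Figure D3:**
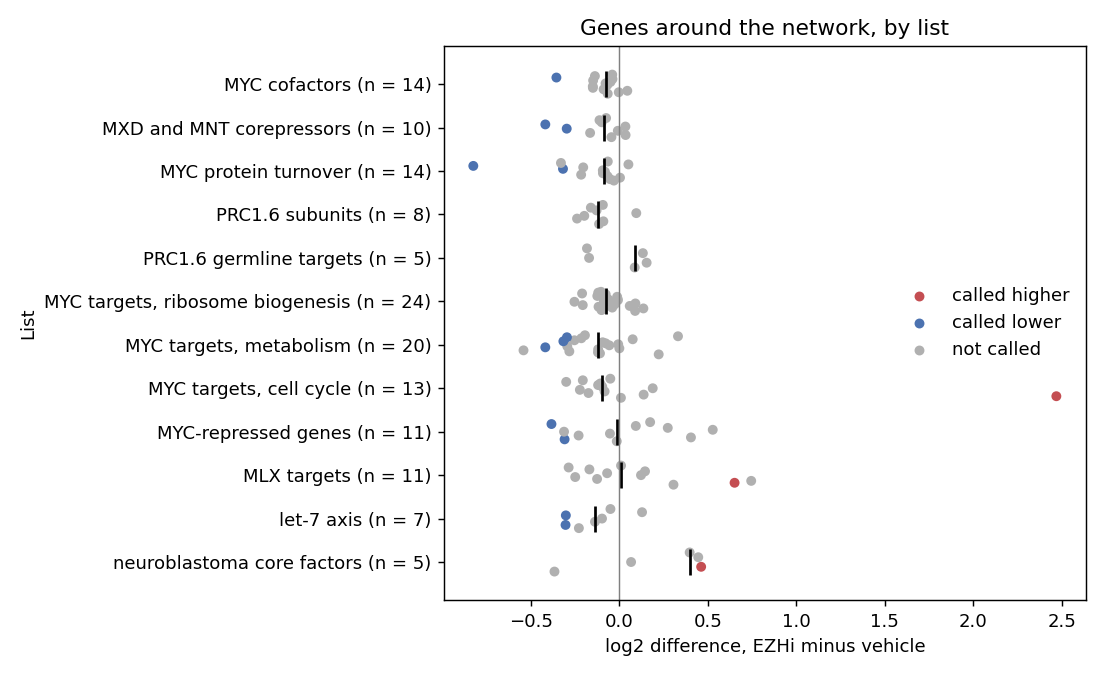
Log2 difference, EZHi minus vehicle, of each tested gene in 12 lists around the network. Each point is a gene, coloured by whether it was called higher or lower, and black bars are list medians; CCND2 at 2.47 stands far from the other genes, which lie between −0.83 and 0.74.

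Among genes commonly activated by MYC, 1 was called higher (CCND2) and 3 lower, all of the latter metabolic. Of 24 ribosome biogenesis genes none was called by limma, 20 had a negative difference, and their median was −0.077. With the replicate block NOLC1 and IMP4 were lower, and quantile normalization and centring turned the median positive (0.03 and 0.02). Nucleolin (NCL) was at 645 and 684 estimated FPKM (0.09, limma adjusted p = 0.61). Of 20 metabolic targets, SHMT1, a one-carbon enzyme, was lower from 53.7 to 40.1 (−0.42, limma adjusted p = 0.0029) and remained so in all 8 fits that left out a library. SLC7A5, an amino acid transporter (−0.32, limma adjusted p = 0.0443), and PAICS, of purine synthesis (−0.30, limma adjusted p = 0.0436), were also called lower. SLC7A5 was called in 2 of those 8 fits (without vehicle replicate 2 or EZHi replicate 3) and PAICS in 1 (without EZHi replicate 1), with adjusted p up to 0.121 and 0.122. ODC1, the polyamine enzyme often used as a MYC target, was at 124.8 and 144.5 (0.22, limma adjusted p = 0.37, and 0.0324 with the replicate block). Of the 20 metabolic genes 19 were at 10 estimated FPKM or more. The median difference of the 20 was −0.12, and −0.0088 after quantile normalization and −0.026 after centring. Over all tested genes the block called 14.9% higher and 15.1% lower. Among the metabolic genes it called 1 higher, ODC1, and 9 lower. Beside SHMT1, SLC7A5 and PAICS these were HK2, the hexokinase (−0.54, adjusted p = 6.5e-05), LDHA, lactate dehydrogenase (−0.28, adjusted p = 0.0067), SHMT2, the mitochondrial paralogue of SHMT1 (−0.29, adjusted p = 0.0039), SLC1A5, PPAT and TYMS.

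CCND2, which encodes cyclin D2, was the called gene among 13 cell cycle targets. Its estimated FPKM was 0.288, 0.589, 0.241 and 0.259 in vehicle and 1.37, 2.76, 1.29 and 2.03 in EZHi. The groups were far apart, and the log2 difference was 2.47 ± 0.32 (SE; limma adjusted p = 0.00075). Like MYCN it started from a low level and stayed below 3 estimated FPKM. CCND1, its abundant paralogue, was at 243.9 and 267.8 (0.14, limma adjusted p = 0.326, and 0.0434 with the replicate block). With the block, CCND2 and CCND1 were called higher and 4 genes lower, where 14.9% and 15.1% of all tested genes were called. The lower genes were the replication licensing genes MCM4 (−0.30, adjusted p = 0.0072) and MCM7 (−0.21, adjusted p = 0.0273), the phosphatase gene CDC25A (−0.17, adjusted p = 0.0385) and E2F2 (−0.22, adjusted p = 0.0302). CDK4 was at 130.2 and 130.7 (0.01, limma adjusted p = 0.973).

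Of 11 genes commonly repressed by MYC, KLF6 and CDKN1B were called lower. At 10 estimated FPKM or more, where 10 of the 11 were, 9.16% of all genes were called lower. CDKN1B, the cyclin-dependent kinase inhibitor p27, went from 50.7 to 40.9 estimated FPKM (−0.31, limma adjusted p = 0.0074), and the call held in all 8 fits that left out a library but neither after quantile normalization nor after centring. KLF6, a zinc finger factor, went from 68.7 to 52.6 (−0.38, limma adjusted p = 0.0464) and was called in 2 of those 8 fits, those without vehicle replicate 1 or EZHi replicate 3, with adjusted p up to 0.133. CDKN1A was at 59.5 and 58.5 (−0.01, limma adjusted p = 0.977). NDRG1 and NDRG2 belong to the N-myc downstream regulated genes, named after the product of MYCN. With the replicate block both were higher (0.53 and 0.27, adjusted p = 5.2e-05 and 0.0055), as was CDKN2B (0.40, adjusted p = 0.0413). In that fit CDKN2C and GADD45B were lower beside KLF6 and CDKN1B (−0.23 and −0.31, adjusted p = 0.0109 and 0.0335).

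On the MLX branch, ARRDC4 was called higher among 11 glucose-responsive targets. ARRDC4, an arrestin family gene induced by glucose, went from 2.01 to 3.18 estimated FPKM (0.65 ± 0.14 SE, limma adjusted p = 0.0136), higher in 4 of 4 pairs and without overlap. Its paralogue TXNIP was at 65.6 and 80.9 (0.31, limma adjusted p = 0.0969), and 0.00066 with the replicate block. That fit also called G6PC1 higher (0.74, adjusted p = 0.0076) and TKFC and GPD1 lower (−0.17 and −0.29, adjusted p = 0.0389 and 0.019). FASN, ACACA and ELOVL6, of fatty acid synthesis, were not called in either fit.

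Of 7 tested genes of the let-7 circuit, whose microRNAs target MYCN mRNA, 2 were called lower. All 7 were at 10 estimated FPKM or more, where 9.16% of all genes were called lower. Neither call held after quantile normalization or centring. HMGA2, a let-7 target encoding a chromatin protein, went from 188.0 to 152.3 estimated FPKM (−0.30, limma adjusted p = 0.0356), and IGF2BP3, an RNA-binding protein gene, from 74.9 to 60.8 (−0.30, limma adjusted p = 0.0232). The call of HMGA2 held in 2 of the 8 fits that left out a library (without vehicle replicate 3 or EZHi replicate 1, adjusted p up to 0.107 in the others). That of IGF2BP3 was lost in 4, those without vehicle replicate 1 or 3 and without EZHi replicate 2 or 4 (adjusted p up to 0.0738). LIN28B, the let-7 inhibitor expressed in HepG2, was at 22.4 and 19.2 (−0.23, limma adjusted p = 0.0945, and 0.0222 with the replicate block). LIN28A was at 0.0488 and 0.118, too low for the test.

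Of 12 factors that accompany MYCN in neuroblastoma, 7 were in the table and 5 passed the filter. TBX2, a T-box repressor, was called higher, from 3.26 to 4.51 estimated FPKM (0.46, limma adjusted p = 0.0161). GATA2 was at 13.4 and 10.6 (−0.37, limma adjusted p = 0.259, and 0.005 with the replicate block), and DBH, of noradrenaline synthesis, was at 2.56 and 3.40 (0.40, limma adjusted p = 0.131, and 0.0144 with the replicate block). GATA3 had a mean under 0.1 estimated FPKM in both groups.

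The 5 tested genes nearest to the pattern of MYCN, by the root mean square difference over the 8 libraries after centring on the vehicle mean, were LDLRAD3 (0.172), CYB561 (0.195), TRIM2 (0.249), PODXL (0.254) and COMP (0.264). LDLRAD3, a receptor of the LDL receptor class, went from 0.808 ± 0.221 to 4.57 ± 0.175 estimated FPKM. CYB561, a cytochrome of secretory vesicles, went from 3.09 ± 1.02 to 15.8 ± 2.82, and PODXL, the sialomucin podocalyxin, from 3.09 ± 1.04 to 16.9 ± 4.68. TRIM2, a ubiquitin ligase, was at 0.233 ± 0.0473 and 1.49 ± 0.0815, and COMP, a cartilage matrix protein, at 5.74 ± 2.64 and 32.9 ± 2.71 (SD, n = 4 each). In vehicle, all 5 were lowest or next to lowest in replicate 3, as MYCN was. They lie on chromosomes other than that of MYCN, and the likeness is a description of 8 values each.

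**Figure D4:**
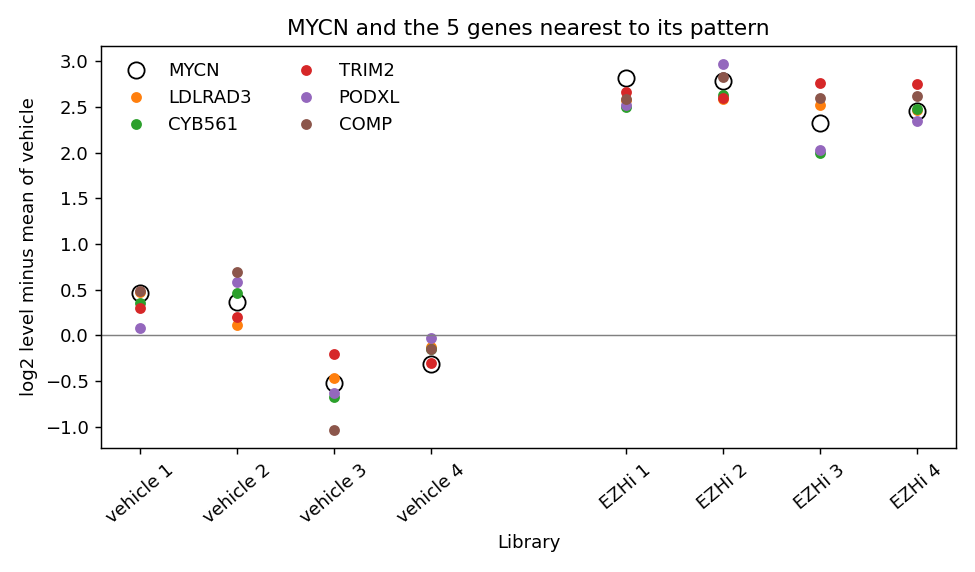
Log2 level of MYCN (open circles) and of the 5 genes nearest to its pattern in each library, minus the mean of the 4 vehicle libraries of that gene. All 6 genes lie between 1.99 and 2.97 above the vehicle mean in every EZHi library, and below it in vehicle replicate 3.

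Other features of the libraries bear on these values. The targeted enzymes are inhibited as proteins, and their transcripts check no label: EZH1 differed by −0.07 and EZH2 by −0.06 (limma adjusted p = 0.573 and 0.806). MYC lies on chromosome 8, and CASC11, antisense to it, was below the filter at 0.0352 and 0.0378 estimated FPKM. All 9 hepatocyte markers were present, with a summed level of 27875 to 51821 in vehicle and 30111 to 46216 in EZHi, and 1 of them, FGB, was called higher (0.92). Of 5 cholangiocyte markers 4 were in the table and none was called by limma, with 1 called with the block. Neural crest markers were limited to TH and DBH of 6 genes (summed level 3.12 to 3.73 in vehicle and 3.53 to 5.17 in EZHi), while HAND2, ISL1 and STMN2 had no row. Of 3 endothelial markers VWF (0.642 to 1.86, log2 difference 1.45) and CDH5 (0.317 to 1.68, 2.28) were called higher and PECAM1 was not (1.61 and 1.65), with summed levels of 2.26 to 2.72 in vehicle and 3.42 to 7.21 in EZHi. Of 4 fibroblast markers 2 were in the table and none was called, and of 3 leukocyte markers only CD3E was, below the filter. The part of these markers in the difference of MYCN was not tested.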

How the data were processed

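RNA was sequenced from 4 vehicle and 4 EZHi cultures of HepG2. The authors aligned reads to hg38 with HISAT2 and counted them per gene with HTSeq in union mode without regard to strand (submitters' processing notes: HISAT2 2.2.1, HTSeq 0.9.1, DESeq2 1.40.2). The authors removed genes with few reads, and the deposited values are their regularised log2 values from DESeq2, corrected for mean transcript length, although they are named FPKM. This transformation shrinks the differences of low genes. Of 25604 rows, 1 repeated an identifier and was dropped. Estimated FPKM is 2 to the power of the value divided by 25.6, the mean over libraries of the length-weighted sum (in units of 1e6), and genes with a mean of at least 0.1 were tested with limma 3.58.1 (R 4.3.3; trend, group only). Samples with equal replicate numbers deviated together, with correlations of 0.216 to 0.634 in the 4 pairs. Those of unequal number lay between −0.582 and 0.199, so the lowest of the 4 pairs was close to the highest of these. The replicate number was taken as pairing the samples, and a fit with it as a block was an alternative. Other alternatives were the filter, pseudocounts of 0.5 and 1, 3 other scalings, the longest transcript for levels, and leaving out each library. Members and lists were chosen with earlier results of these data known. Genes named in the lists are up to 4 called in each direction, beside members, partners, overlapping genes, neighbours, markers and the 5 genes nearest to MYCN. Other genes of the lists were named after their values were seen. Promoter sequences are RefSeq entries on GRCh38.p14, with 9 of 10 members matched, and MYC was without an entry. The scripts were tested on simulated data. A few single genes of the lists are not reported here, though the list counts include them.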

Additional observations from a re-analysis of the deposited data

How the results depend on the processing

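The number of members other than MYCN that were called was 2. It was 1 after centring on genes of 10 estimated FPKM or more, 5 with the replicate block, and 1 to 2 when a library was left out. It stayed at 2 with no filter, a filter of 1 estimated FPKM, either pseudocount, median-of-ratios scaling and quantile normalization, although the last called MYC and not MLX. Over all genes 2644 were called, 1579 with the filter of 1, 6051 with the block, and 1811 to 2571 with a library left out. Centring gave 2504 genes called higher and 326 lower (88.5% higher), in place of 1784 and 860 (67.5%). Of the pathway genes 15 were called, 47 with the block, and 9 to 16 with a library left out, the lowest count being reached both when EZHi replicate 2 and when EZHi replicate 4 was the one omitted. The block moved MYC, MYCL, MNT, MLXIP and MLXIPL past the threshold and ended no call among the members. Differences near 0 changed sign with the library omitted: MXD3 ranged from −0.014 to 0.12, MXI1 from −0.0045 to 0.18 (−7.3e-05 when vehicle replicate 2 was omitted), and MGA from −0.059 to 0.010. MGA was also 0.024 with quantile normalization and 0.077 with centring. The causes were not tested.

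The log2 difference of MYCN was 2.59, and pseudocounts of 0.5 and 1 lowered it to 1.68 and 1.28, because a constant near the level of a low gene reduces its difference. Read depth is unknown, so no counting interval is given, and values under 1 estimated FPKM, such as MYCN in vehicle, are those most affected by the shrinkage of low values. With 4 libraries a group, the intervals of MYCL, MXI1 and MAX are wide. Levels, and the order of MLX and MXD4 and of MXD3 and MNT, depend on the transcript length used.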
